A study of Mus musculus with 44 samples.

Results

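The hepatic response to 2-butoxyethanol (2BE) was compared between 4 h and 7 d, as the change against vehicle at 7 d minus the change against vehicle at 4 h. All 16 liver arrays of the series entered the comparison, of 44 arrays in all; the other arrays came from spleen and bone marrow. The liver samples were from B6C3F1 mice, a hybrid laboratory strain, and fell into 4 groups: 2BE at 4 h (4 arrays), vehicle at 4 h (3 arrays), 2BE at 7 d (5 arrays) and vehicle at 7 d (4 arrays). Arms were assigned by sample title. The treatment entry of the same samples reads "reduced oxygen" for 2BE and "control" for vehicle, which the titles do not mention. The labels used here state no dose, route, sex or age. They also do not say whether arrays of a group came from separate animals, so the p-values measure the spread between these arrays. A piece of the left lateral lobe was taken from each liver, per the series description, and measured as bulk RNA on Affymetrix arrays.

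2BE is a glycol ether solvent. In rodents it is oxidised by alcohol and aldehyde dehydrogenases, mainly in the liver, to butoxyacetic acid, which damages red blood cells. The liver then clears haemoglobin and haem, and its Kupffer cells, the resident macrophages, take up damaged red cells and recycle their iron. Hepatocytes also respond to stress hormones, fasting and day-night time, and many of their early stress genes are switched on for hours only.

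Values are RMA intensities on a linear scale, and changes are differences of log2(intensity + 1) between 2BE and vehicle arrays of 1 time, which understate the change of genes near the lower end of the scale. A gene said to stand at a pair of values has these log2 changes at 4 h and at 7 d, each ± SE where given. The median over all probe sets was 41.2 to 42.4 on the 7 arrays at 4 h and 50.0 to 52.2 on the 9 arrays at 7 d, so the times may have been normalized apart, and levels were compared within 1 time only. Arrays of 1 time correlated at 0.987 to 0.996 at 4 h and 0.991 to 0.998 at 7 d. Between the arms, 9 measured hepatocyte markers were compared, the albumin gene Alb among them. Levels in spleen or bone marrow were not set beside them, so this does not check the tissue label. Their summed intensity was 198800 to 217500 with 2BE at 4 h, against 195800 to 218500 with vehicle. The sum was 203100 to 207500 with 2BE at 7 d, against 204500 to 208900 with vehicle. None of these 9 was called at 4 h (4.51% of all genes were) or at 7 d (0.748%). With shares this low, the absence of calls among 9 genes says little about them. In bulk tissue, fewer cells of a type and less RNA per cell cannot be told apart.

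At 4 h, 821 of 18193 genes were called changed (4.51%; 590 higher, 3.24%, and 231 lower, 1.27%, with 2BE; limma, adjusted p under 0.05), against 136 at 7 d (0.748%; 92 higher and 44 lower). The difference between the times was itself called for 49 genes (0.269%; 1681 at an unadjusted p under 0.05), of which 31 were lower and 18 higher at 7 d than at 4 h. These calls rest on 1 spread per gene, shared by the 4 liver groups. The order of the times was not stable to this choice: fitting only the 2 groups compared called 176 genes at 4 h and 244 at 7 d. A variance per time gave 506 and 304. Responses were sorted by the 3 calls of the shared fit. A response was transient when it was called at 4 h, not at 7 d, and the difference was called against it. This held for 37 genes (0.203%), 26 higher and 11 lower at 4 h. Of these 37, 22 had the opposite sign at 7 d, a count that the called difference favours. In 10 of them the 2BE arrays were all beyond the vehicle arrays at 7 d (5.33% of all genes). Transient thus need not mean a return to the vehicle level. A response was lasting when called in the same direction at both times, which held for 48 genes (0.264%), 42 higher and 6 lower. It was late when called at 7 d, not at 4 h, with a called difference, which held for 7 genes (0.0385%), 5 higher and 2 lower. It was reversed when called in opposite directions, which held for 3 genes (0.0165%). Another 2 genes, Per3 and Dock10 (0.0110%), had a called difference and no call at either time. For 733 genes called at 4 h alone (4.03%) and 78 called at 7 d alone (0.429%), the difference was not called, so these are neither transient nor lasting here.

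Most early changes were smaller at 7 d. Among the 590 genes called higher at 4 h, the median log2 change was 0.51 at 4 h and 0.15 at 7 d, and among the 231 called lower it was -0.50 and -0.13. The estimate was smaller in size at 7 d for 808 of the 821 genes, a count that the choice of genes by their 4 h change favours. Of the 821, 694 (84.5%) had the same sign at 7 d, against 59.2% of all genes. Of the 821 genes called at 4 h, 51 (6.21%) were also called at 7 d, which is 37.5% of the 136 genes called there. Same-numbered arrays at 4 h correlated in their deviations from the group means at 0.132, 0.282 and 0.146, so the number was used as a block there; arrays of unlike number ran from -0.301 to 0.37, and 3 of these pairs were above 0.1 too (0.129, 0.225 and 0.37). A fit with that number as a block at 4 h called 688 genes at 4 h, 253 at 7 d and 88 in the difference (44 higher and 44 lower), of which 40 were among the 49. This block acts on the 4 h arrays only. The 7 d estimates stayed as they were, and 7 d calls gained or lost with it came through the spread shared by the groups. The block gave 48 transient genes (24 shared with the 37), 70 lasting (41 shared with the 48), 24 late (5 shared with the 7) and 8 reversed (1 shared with the 3). Without a single array the count of called differences ranged between 4 (without 2BE at 7 d replicate 4) and 111 (without 2BE at 4 h replicate 1), so class membership near the threshold depended on which arrays were in the fit.

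**Figure D1:**
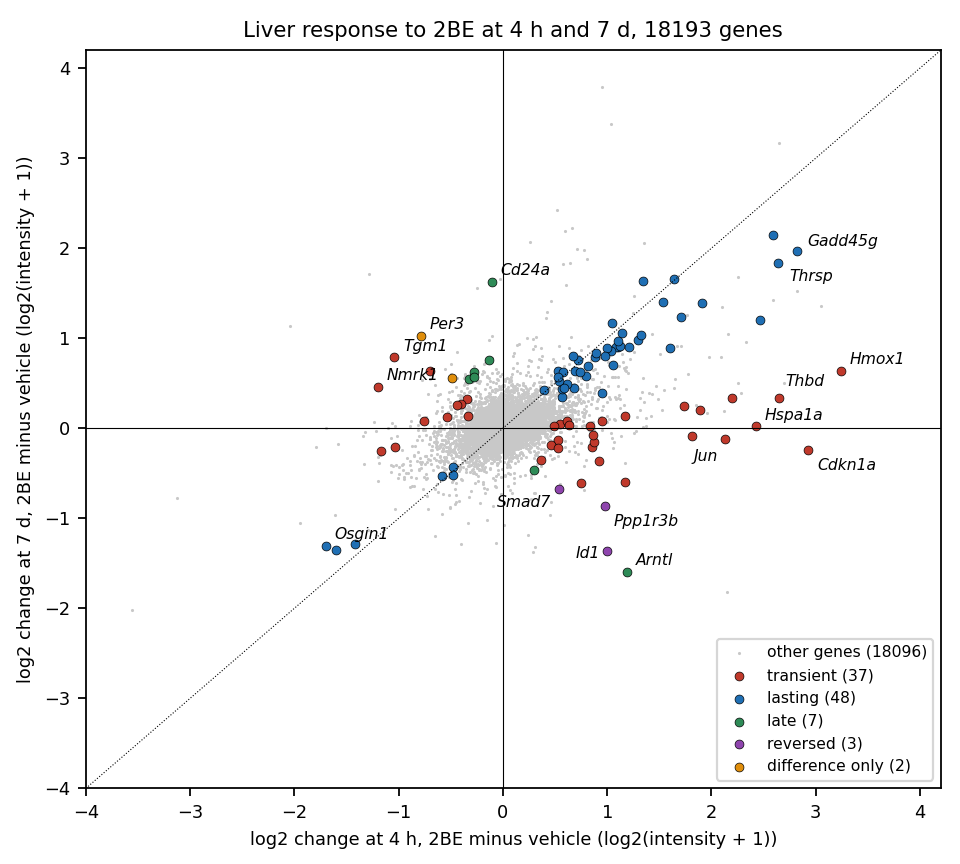
Each point is 1 of 18193 genes, with its log2 change (2BE minus vehicle) at 4 h on the horizontal axis and at 7 d on the vertical axis; colours mark the classes, the dotted line marks equal changes and the classes were cut from these values. All 37 transient genes had a smaller change at 7 d than at 4 h, the lasting genes Gadd45g and Thrsp lie at upper right, and Id1, Smad7 and Ppp1r3b at lower right.

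Among the named genes, transient induction was led by Cdkn1a, Hmox1, Hspa1a and Thbd. These are single genes of cell cycle arrest, haem breakdown, heat shock and thrombin binding. Cdkn1a encodes p21, an inhibitor of cyclin-dependent kinases. Its intensity was 939.8, 2561, 1944 and 2870 on the 2BE arrays at 4 h, against 385.1, 154.9 and 262.3 with vehicle. Cdkn1a read 399.1, 269.3, 141.8, 146.8 and 184.7 with 2BE at 7 d, against 133, 268.8, 448.5 and 240 with vehicle. The arms were apart at 4 h and mixed at 7 d. The log2 change was 2.93 ± 0.45 (SE) at 4 h and -0.24 ± 0.40 at 7 d, a difference of -3.17 ± 0.60 (adjusted p = 0.0357), and a second probe set gave 2.56 and 0.01. The difference of Cdkn1a was not called with the replicate block at 4 h (adjusted p = 0.0710), nor without any 1 of 12 of the 16 arrays (adjusted p up to 0.0907, without 2BE at 4 h replicate 4).

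Hmox1 encodes haem oxygenase 1, which opens the haem ring and frees its iron. Its intensity was 694.7, 710.8, 1199 and 1305 with 2BE at 4 h, against 92.0, 84.7 and 121.9 with vehicle. Hmox1 read 321.4, 309.2, 226.5, 287.2 and 227.0 with 2BE at 7 d, against 200.9, 158.9, 153.3 and 185.8 with vehicle. The arms did not overlap at either time, and the gap was wide at 4 h and narrow at 7 d. The log2 change was 3.24 ± 0.21 at 4 h and 0.64 ± 0.19 at 7 d (adjusted p = 0.130), a difference of -2.60 ± 0.28 (adjusted p = 0.000703) that kept its call in all 29 alternatives. The 7 d change of Hmox1 was called too with the replicate block (0.64, adjusted p = 0.0213), so that it then counted as lasting with a smaller size at 7 d. Hspa1a encodes an inducible Hsp70 chaperone. It read 108.0, 149.8, 141.4 and 212.7 with 2BE at 4 h, against 22.8, 31.1 and 27.1 with vehicle. Hspa1a read 17.6 to 24.0 with 2BE at 7 d, against 17.1 to 22.5 with vehicle. The 4 h arms were far apart, and at 7 d the arms overlapped throughout. The log2 change was 2.43 ± 0.17 at 4 h and 0.02 ± 0.15 at 7 d, and the difference of -2.41 ± 0.23 (adjusted p = 0.000207) held in all 29 alternatives. Its near-identical neighbour Hspa1b stood at 0.45 ± 0.25 at 4 h (adjusted p = 0.391) and -0.96 ± 0.22 at 7 d (adjusted p = 0.0599), and probes shared between the 2 genes were not tested.

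Thbd encodes thrombomodulin, the endothelial receptor that turns thrombin towards anticoagulation. It read 150.0, 331.7, 495.9 and 522.8 with 2BE at 4 h, against 38.1, 59.6 and 65.6 with vehicle. Thbd read 51.9 to 99.0 with 2BE at 7 d, against 45.7 to 61.8 with vehicle. The log2 change was 2.65 ± 0.34 at 4 h and 0.34 ± 0.30 at 7 d, with a difference of -2.31 ± 0.46 (adjusted p = 0.0456). Of 22 measured coagulation and fibrinolysis genes, Thbd alone was called at 4 h (4.51% of all genes were). The median change of these 22 at 4 h was -0.04. Jun encodes a subunit of the AP-1 transcription factor. It read 309.5, 430.0, 393.5 and 447.6 with 2BE at 4 h, against 94.3, 93.5 and 79.7 with vehicle. Jun read 101.1 to 288.1 with 2BE at 7 d, against 120.3 to 271.1 with vehicle. The change of Jun was 2.13 ± 0.31 at 4 h and -0.12 ± 0.28 at 7 d, with a difference of -2.24 ± 0.42 (adjusted p = 0.0338; 0.0634 with the replicate block). Both genes had arms that were apart at 4 h and overlapped at 7 d. The calls of both were fragile: that of Thbd was lost without any 1 of 14 arrays (adjusted p up to 0.130, without vehicle at 4 h replicate 1) and that of Jun without any 1 of 13 (up to 0.0868, without 2BE at 4 h replicate 4).

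**Figure D2:**
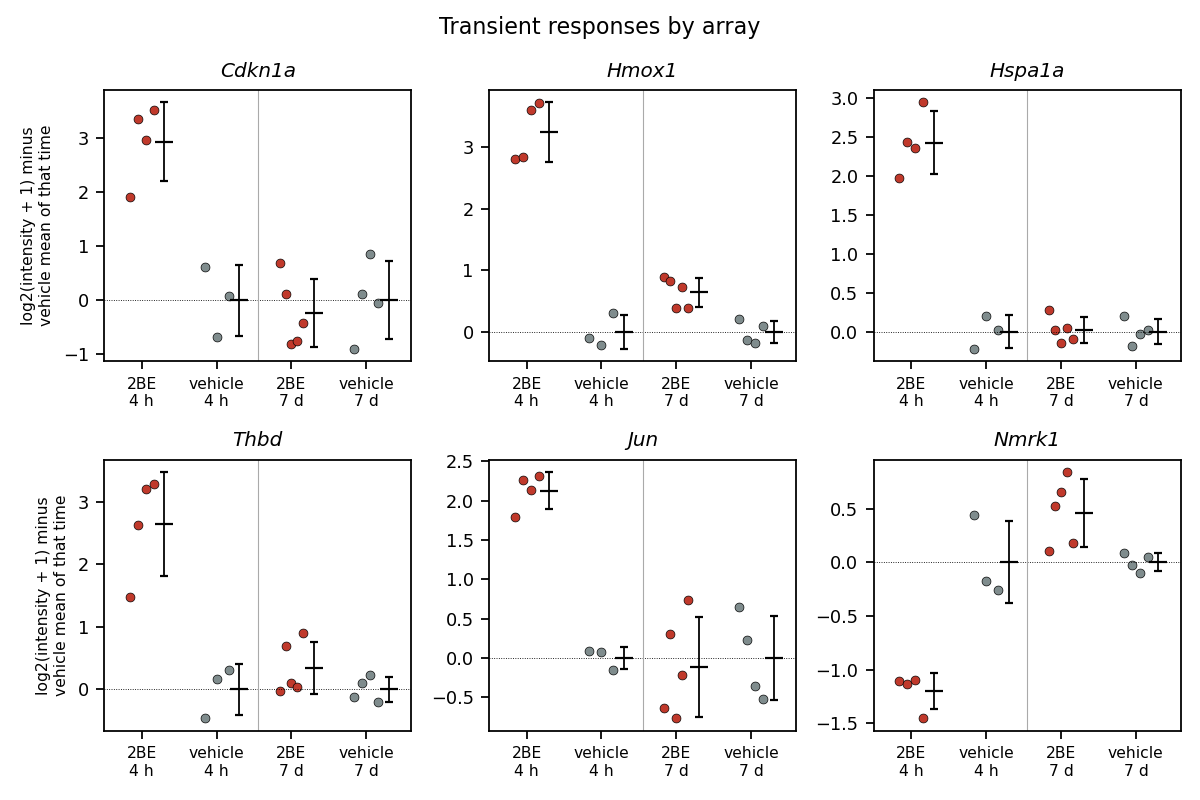
Points are single arrays, 2BE in red and vehicle in grey, as log2(intensity + 1) minus the vehicle mean of the same time; horizontal ticks and bars beside them are the group mean ± SD (4, 3, 5 and 4 arrays from left to right). Cdkn1a, Hmox1, Hspa1a, Thbd and Jun stood above all vehicle arrays at 4 h, and at 7 d only Hmox1 among these 5 was above all vehicle arrays. Nmrk1 lay below them at 4 h and above them at 7 d.

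Some scaffold and signalling genes were also transient by these calls. Akap12, which anchors protein kinase A, stood at 1.82 ± 0.22 at 4 h and -0.09 ± 0.19 at 7 d (difference -1.91, adjusted p = 0.0189). Rasgef1b, an exchange factor for Ras-family GTPases, stood at 2.20 ± 0.26 and 0.34 ± 0.22 (difference -1.86, adjusted p = 0.0338; 0.0543 with the replicate block). Irf2bp2, a transcriptional co-regulator, read 808.1 to 1242 with 2BE at 4 h, against 349.1 to 689.6 with vehicle. Irf2bp2 read 856.4 to 1002 with 2BE at 7 d, against 1093 to 1773 with vehicle. Its arms were thus apart in opposite directions: 1.17 ± 0.20 at 4 h and -0.60 ± 0.18 at 7 d (adjusted p = 0.152), a difference of -1.77 (adjusted p = 0.0189), and with the replicate block the 7 d fall was called (adjusted p = 0.0424), which made it reversed. Without 2BE at 7 d replicate 4 the adjusted p of the difference was 0.0536 for Akap12 and 0.0547 for Irf2bp2, and without 2BE at 4 h replicate 4 it was 0.0807 for Rasgef1b. The other transient genes higher at 4 h, named after their values were seen, included Rhob, a small GTPase (0.87 at 4 h and -0.07 at 7 d), Pmp22, a peripheral myelin protein (1.17 and 0.13), Ccng2, an atypical cyclin (0.92 and -0.37; adjusted p of the difference 0.0456, and 0.0502 with the replicate block), and the chromatin reader Brd2 (0.53 and -0.13).

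Some NF-kB targets were transient. Cxcl2, a chemokine for neutrophils, read 57.2, 56.0, 52.6 and 122.8 with 2BE at 4 h, against 13.7, 18.3 and 21.4 with vehicle. Cxcl2 read 11.9 to 13.8 with 2BE at 7 d, against 10.6 to 11.7 with vehicle. The 7 d arms were apart by a narrow gap near the bottom of the scale. It stood at 1.89 ± 0.21 at 4 h and 0.20 ± 0.19 at 7 d (difference -1.68, adjusted p = 0.0268). Tnfaip3, which encodes the ubiquitin-editing NF-kB inhibitor A20, stood at 1.73 ± 0.22 and 0.24 ± 0.19 (difference -1.49, adjusted p = 0.0394), while its second probe set gave 0.49 and -0.05. Nfkbia, which encodes the NF-kB inhibitor IkBa, stood at 0.87 ± 0.14 and -0.16 ± 0.12 (difference -1.03, adjusted p = 0.0338). These 3 were the 3 called differences among 24 measured inflammatory cytokines and NF-kB targets. These are 3 of 24 against 0.170% of all genes with a difference called downward. Of the 24, 5 were called higher at 4 h (3.24% of all genes were) and 3 at 7 d (0.506%). Icam1, an adhesion molecule for leukocytes, was called at both times (0.67 and 0.81), and Vcam1 at 7 d alone (0.71 ± 0.32, adjusted p = 0.255, and 1.99 ± 0.28, adjusted p = 0.00500). The 2 other probe sets of Vcam1 gave 0.09 and 0.88 at 7 d. The adjusted p of the difference reached 0.0634 for Cxcl2 without vehicle at 7 d replicate 4, 0.0977 for Tnfaip3 and 0.0840 for Nfkbia without vehicle at 4 h replicate 1.

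The promoters of these 3 genes are shown because each holds a match to the kB consensus, the sequence bound by NF-kB, in the window covering 250 bases before and 50 bases after the annotated start (RefSeq, GRCm38.p6; capitals mark the match, on either strand). They are Cxcl2 at chr5:90903649-90903948 on the plus strand, Nfkbia at chr12:55492598-55492897 on the minus strand and Tnfaip3 at chr10:19015361-19015660 on the minus strand, the last being 1 of 2 start sites listed. In Cxcl2 a pair of overlapping matches spans bases -97 to -87, in Nfkbia a match spans -29 to -20, and in Tnfaip3 matches span -125 to -116 and -12 to -3.
Cxcl2: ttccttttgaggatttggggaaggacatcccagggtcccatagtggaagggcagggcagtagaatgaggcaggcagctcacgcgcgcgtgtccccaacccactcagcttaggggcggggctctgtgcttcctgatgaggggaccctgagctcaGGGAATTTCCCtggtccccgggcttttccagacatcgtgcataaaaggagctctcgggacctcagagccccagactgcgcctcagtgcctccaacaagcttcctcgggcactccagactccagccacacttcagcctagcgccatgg
Nfkbia: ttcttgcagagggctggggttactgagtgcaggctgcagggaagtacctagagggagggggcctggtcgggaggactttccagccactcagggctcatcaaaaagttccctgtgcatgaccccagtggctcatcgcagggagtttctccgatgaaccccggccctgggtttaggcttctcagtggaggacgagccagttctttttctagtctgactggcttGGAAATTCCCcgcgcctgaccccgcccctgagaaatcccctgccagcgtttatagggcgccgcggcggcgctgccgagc
Tnfaip3: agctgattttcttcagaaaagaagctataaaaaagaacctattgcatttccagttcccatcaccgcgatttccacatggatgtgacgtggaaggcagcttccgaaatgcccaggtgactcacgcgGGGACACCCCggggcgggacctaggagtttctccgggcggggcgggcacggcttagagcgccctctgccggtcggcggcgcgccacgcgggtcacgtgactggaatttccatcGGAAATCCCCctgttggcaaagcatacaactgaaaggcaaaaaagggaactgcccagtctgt
Over all windows of a gene and both strands, a kB match was present in 5 of the 32 transient genes with a promoter in the table (15.6%: Cxcl2, Fcgr3, Nfkbia, Sdc4 and Tnfaip3), in 4 of 44 lasting genes (9.09%) and in 1388 of all 27025 genes (5.14%). The heat shock element core GAANNTTC, whose letters read the same on both strands, was found in 4 of the 32 (12.5%: Btaf1, Dusp16, Hspa1a and Jun), against 9.04% of all genes. Sdc4, a cell surface proteoglycan gene, stood at 0.37 and -0.35 (adjusted p = 0.0745 at 7 d), and with the replicate block its 7 d fall was called (adjusted p = 0.0394), which made it reversed. The motifs were chosen after the values were seen, and a match describes the letters only.

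Stress-hormone and immediate early genes were called mainly at 4 h. Of 13 measured glucocorticoid-responsive genes, 10 were called higher at 4 h (3.24% of all genes were) and 2 at 7 d (0.506%); the median change was 1.12 at 4 h and 0.26 at 7 d, against -0.02 and -0.00 over all genes. Sgk1, a steroid-induced kinase, stood at 2.12 ± 0.41 and 0.19 ± 0.36, Dusp1, a MAP kinase phosphatase, at 1.85 ± 0.27 and 0.26 ± 0.24, and Zbtb16, a zinc finger repressor, at 1.26 ± 0.22 and -0.05 ± 0.19. Their differences, of -1.93, -1.59 and -1.32, were not called (adjusted p = 0.198, 0.0873 and 0.0847). Cdkn1a, itself in this list, had the only called difference. With the replicate block this turned over: the difference of Sgk1 was called (-1.93, adjusted p = 0.0331), which made it transient, and that of Cdkn1a was not (adjusted p = 0.0710). The metallothionein genes Mt1 and Mt2 ran the other way without a call, at 0.60 and 0.66 at 4 h and 1.59 and 2.22 at 7 d (adjusted p of the differences 0.718 and 0.551). Of 25 immediate early genes, 12 were called higher at 4 h and 1, Fosl2, at 7 d (1.30 and 0.98), with medians of 0.55 and 0.05. Fos stood at 1.96 ± 0.37 and 0.17 ± 0.33 (difference -1.79, adjusted p = 0.189), and Klf6, a zinc finger factor, at 1.07 and 0.09 (difference -0.98, adjusted p = 0.0843).

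Egr1, an immediate early transcription factor gene, lay just outside the threshold. It stood at 2.15 ± 0.60 at 4 h (adjusted p = 0.0533) and -1.82 ± 0.53 at 7 d (adjusted p = 0.130), a difference of -3.97 ± 0.80 with an adjusted p of 0.0501. Its 2BE arrays were all above vehicle at 4 h and all below it at 7 d. With the replicate block at 4 h, Egr1 was called at both times and in the difference (1.40, -1.82 and -3.23, adjusted p = 0.00238 for the difference). The gene just inside the threshold was Bpgm (adjusted p = 0.0483).

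Of 22 p53 targets and growth arrest genes, 5 were called higher at 4 h (3.24% of all genes were) and 1 at 7 d (0.506%), and the single called difference, that of Cdkn1a, was lost with the replicate block. Trp53inp1, a p53-induced nuclear protein gene, stood at 2.26 ± 0.32 and 0.51 ± 0.28 (difference -1.75, adjusted p = 0.122), and Btg2, an antiproliferative gene, at 2.33 ± 0.31 and 0.96 ± 0.27 (difference -1.37, adjusted p = 0.234). Of 18 heat shock chaperones, 2 were called higher at 4 h and 0 at 7 d; beside Hspa1a this was the small chaperone Hspb8 (0.76 and 0.18). Of 28 targets of hypoxia-inducible factors, 4 were called higher at 4 h and 0 at 7 d, with medians of 0.15 and 0.02. Ddit4, a stress-inducible inhibitor of the growth kinase mTOR, read 142.1, 759.7, 670.8 and 1396 with 2BE at 4 h, against 70.0, 86.0 and 105.5 with vehicle, and stood at 2.70 ± 0.60 and 0.50 ± 0.53 (difference -2.20, adjusted p = 0.355); its 4 h call was lost without vehicle at 4 h replicate 1 (adjusted p = 0.0664). Vegfa, the hypoxia-inducible angiogenic factor, was called at neither time (-0.18 ± 0.09 and 0.04 ± 0.08). Of 24 Nrf2 antioxidant genes, 3 were called higher and 1 lower at 4 h (1.27% of all genes were lower), and 0 higher and 1 lower at 7 d (0.242%); with the replicate block 1 was higher and 2 were lower at 7 d.

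Transient falls covered enzymes, a glucose transporter and receptors. Tgm1, a transglutaminase, read 108.0, 86.7, 57.4 and 99.3 with 2BE at 4 h, against 146.5, 148.9 and 255.0 with vehicle. Tgm1 read 79.9, 73.7, 88.4, 105.0 and 101.9 with 2BE at 7 d, against 58.5, 43.5, 43.9 and 61.1 with vehicle. The 2BE arrays were below all vehicle arrays at 4 h and above all of them at 7 d. The change of Tgm1 was -1.04 ± 0.22 at 4 h and 0.79 ± 0.19 at 7 d (adjusted p = 0.0745), with a difference of 1.83 ± 0.29 (adjusted p = 0.0228). Nmrk1, a kinase that feeds nicotinamide riboside into NAD, read 60.4, 59.2, 60.6 and 47.2 with 2BE at 4 h, against 177.9, 115.9 and 109.3 with vehicle. Nmrk1 read 104.8, 140.8, 154.5, 175.5 and 110.4 with 2BE at 7 d, against 103.7, 95.7, 90.7 and 100.9 with vehicle. It crossed over in the same way, by -1.20 ± 0.18 and 0.46 ± 0.15 (adjusted p = 0.214 at 7 d), with a difference of 1.66 ± 0.23 (adjusted p = 0.0108); its other probe sets gave differences of 0.74 and 0.95.

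Slc2a2 encodes the hepatic glucose transporter GLUT2. It read 2909, 2835, 2736 and 3087 with 2BE at 4 h, against 4316, 4508 and 3804 with vehicle. Slc2a2 read 7196 to 8356 with 2BE at 7 d, against 6475 to 7977 with vehicle. The 4 h arms were well apart and the 7 d arms overlapped. Its change was -0.54 ± 0.08 and 0.12 ± 0.07 (difference 0.66, adjusted p = 0.0228). The remaining named falls at 4 h were those of Frmd4a, a scaffold protein (-0.76 and 0.08), Ttc7, a tetratricopeptide protein (-0.44 and 0.26), Fam169b (-0.34 and 0.33), Pilrb1, an immunoglobulin-like receptor (-0.40 and 0.27), and Zbtb14, a zinc finger factor (-0.34 and 0.14). Other probe sets gave smaller differences for Ttc7 (4 sets, 0.08 to 0.47, against 0.70) and Zbtb14 (3 sets, 0.05 to 0.16, against 0.47). Fam169b lost its 4 h call (adjusted p = 0.0989) and Zbtb14 its call of the difference (adjusted p = 0.0528) with the replicate block. Fcgr3, an Fc receptor of myeloid cells named after its values were seen, stood at -0.70 ± 0.18 at 4 h and 0.64 ± 0.16 at 7 d (difference 1.34, adjusted p = 0.0338) and was reversed with the block (adjusted p = 0.00559 at 7 d). Called differences were lost without 1 array for Tgm1 (up to 0.0558, without vehicle at 7 d replicate 3), Slc2a2 (0.0622, without vehicle at 7 d replicate 4), Frmd4a, Pilrb1 and Zbtb14 (0.0848, 0.0848 and 0.0907, all without 2BE at 4 h replicate 4), Ttc7 (0.0766, without 2BE at 7 d replicate 4) and Fam169b (0.0801, without vehicle at 7 d replicate 3); that of Nmrk1 held without each of the 16 arrays. Without vehicle at 4 h replicate 3 the 4 h calls of Tgm1, Ttc7 and Pilrb1 were lost (adjusted p = 0.0551, 0.0679 and 0.0680).

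Lasting induction included a growth arrest gene, a lipid gene and mitochondrial genes. Gadd45g, a stress-inducible growth arrest gene, read 2203, 3478, 2844 and 3692 with 2BE at 4 h, against 276.2, 390.8 and 706.5 with vehicle. Gadd45g read 490.5, 1435, 412.6, 341.3 and 1460 with 2BE at 7 d, against 131.9, 331.0, 169.9 and 118.8 with vehicle. All 2BE arrays were above all vehicle arrays at both times, by the narrowest margin in replicate 4 at 7 d. The change was 2.82 ± 0.49 (adjusted p = 0.00387) and 1.97 ± 0.43 (adjusted p = 0.0459), and the difference of -0.84 ± 0.66 was not called (adjusted p = 0.750). Thrsp, a regulator of fatty acid synthesis, read 2425, 6440, 3933 and 10730 with 2BE at 4 h, against 628.1, 1375 and 623.9 with vehicle. Thrsp read 10410, 15050, 12080, 13570 and 9950 with 2BE at 7 d, against 5610, 1897, 3113 and 3903 with vehicle. The arms were apart at both times, by 2.64 ± 0.43 (adjusted p = 0.00234) and 1.84 ± 0.37 (adjusted p = 0.0291). The 2 other probe sets of Thrsp gave -0.04 and 2.67 at 4 h, and 0.09 and 2.14 at 7 d.

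Ppargc1a, a coactivator of mitochondrial and fasting genes, read 491.9, 451.4, 504.6 and 705.3 with 2BE at 4 h, against 177.7, 87.7 and 176.3 with vehicle. Ppargc1a read 905.8, 2088, 875.0, 1193 and 1283 with 2BE at 7 d, against 580.2, 385.0, 441.1 and 448.0 with vehicle. It stood at 1.91 ± 0.28 (adjusted p = 0.00134) and 1.39 ± 0.25 (adjusted p = 0.0142), with no overlap between arms. A pair of genes of NAD metabolism rose at both times. Slc25a51, which carries NAD into mitochondria, stood at 1.53 ± 0.23 (adjusted p = 0.00158) and 1.40 ± 0.21 (adjusted p = 0.00618), and Nnmt, which methylates nicotinamide, at 1.64 ± 0.38 (adjusted p = 0.0208) and 1.66 ± 0.34 (adjusted p = 0.0291). Slc25a51 read 3061 to 4233 with 2BE at 4 h, against 1125 to 1319 with vehicle. Slc25a51 read 1311 to 3383 with 2BE at 7 d, against 691.4 to 960.6 with vehicle, so its arms were apart at both times.

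Nrg4, a secreted ligand of the ErbB4 receptor, stood at 1.34 ± 0.32 (adjusted p = 0.0237) and 1.64 ± 0.28 (adjusted p = 0.0121). Atp1b1, the beta 1 subunit of the sodium pump, stood at 2.47 ± 0.26 (adjusted p = 0.000178) and 1.20 ± 0.23 (adjusted p = 0.0212), with a difference of -1.27 that was not called (adjusted p = 0.185), and C9orf72 at 1.71 ± 0.31 (adjusted p = 0.00490) and 1.24 ± 0.27 (adjusted p = 0.0473). The 4 other probe sets of Atp1b1 ran from -0.03 to 2.39 at 4 h and from -0.02 to 1.25 at 7 d. With the replicate block, the 4 h call of Nrg4 (adjusted p = 0.0518) and the 7 d call of C9orf72 (adjusted p = 0.0527) were lost, and without 1 array the 4 h adjusted p reached 0.0919 for Nrg4 (vehicle at 4 h replicate 1) and 0.102 for Nnmt (vehicle at 4 h replicate 2). Among lasting genes named after their values were seen, Tat, the tyrosine aminotransferase induced by glucocorticoids and fasting, stood at 1.60 and 0.89, the Rab GTPase-activating protein gene Tbc1d8 at 1.04 and 1.17, Noct, a clock-regulated phosphatase of NADP cofactors, at 2.59 and 2.15 with overlapping arms at 7 d, and fumarate hydratase (Fh1) at 0.80 and 0.58. Of the 48 lasting genes, 38 had the smaller estimate at 7 d and 0 had a called difference, so no change of size was resolved. Arms were apart in all 48 at 4 h (11.1% of all genes were) and in 44 at 7 d (5.33%). Choosing genes by their calls on these same arrays favours such counts, so they are no separate support. The 2BE arrays at 7 d were uneven. Replicates 2 and 5 read highest among them for Gadd45g, C9orf72 and Noct, while for Thrsp replicate 5 read lowest. Without 2BE at 7 d replicate 1, 2, 3, 4 or 5 there were 87, 26, 47, 21 or 27 lasting genes, in that order.

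Lasting falls were fewer. Osgin1, an oxidative-stress-inducible growth inhibitor, read 587.1, 383.8, 549.0 and 443.6 with 2BE at 4 h, against 1108, 1603 and 2187 with vehicle. Osgin1 read 1085, 439.4, 1366, 1407 and 1013 with 2BE at 7 d, against 2218, 2932, 1935 and 2820 with vehicle. Every 2BE array lay below every vehicle array at both times. It fell by 1.70 on the log2 scale at 4 h (SE 0.32, adjusted p = 0.00643) and by 1.31 at 7 d (SE 0.28, adjusted p = 0.0440). Smaller lasting falls were those of the kinase gene Taok3 (-0.58 and -0.54), Gucd1, a guanylyl cyclase domain gene (-0.48 and -0.52), and the formin gene Daam1 (-0.48 and -0.43). The 2 other probe sets of Daam1 gave -0.18 and 0.03 at 7 d. Gucd1 lost its 4 h call with the replicate block (adjusted p = 0.0792). Without vehicle at 7 d replicate 3 the adjusted p at 7 d was 0.145 for Gadd45g, 0.115 for Nnmt, 0.150 for C9orf72, 0.0789 for Atp1b1, 0.130 for Taok3, 0.106 for Gucd1 and 0.168 for Daam1, and without vehicle at 7 d replicate 2 it was 0.119 for Thrsp, 0.0617 for Ppargc1a, 0.0563 for Nrg4 and 0.148 for Osgin1.

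**Figure D3:**
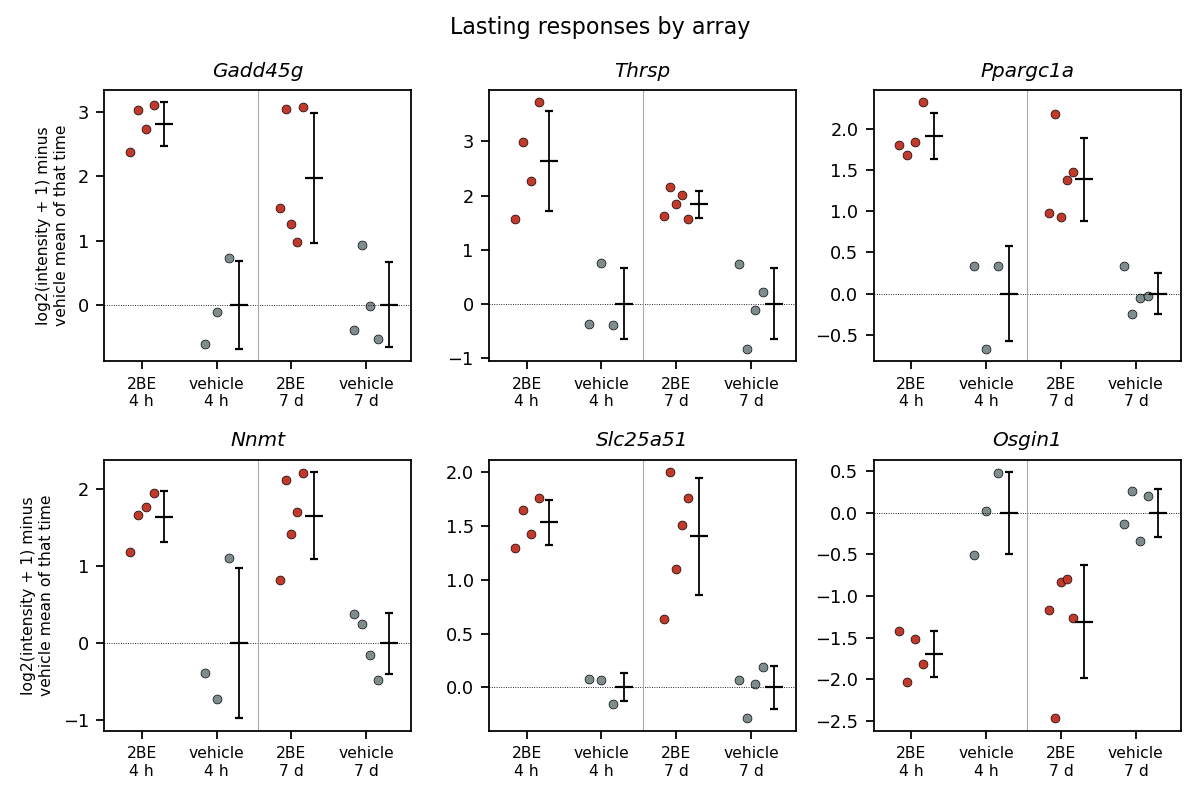
Points are single arrays, 2BE in red and vehicle in grey, as log2(intensity + 1) minus the vehicle mean of the same time, with the group mean ± SD beside them (4, 3, 5 and 4 arrays from left to right). The 2BE arrays of Gadd45g, Thrsp, Ppargc1a, Nnmt and Slc25a51 lay above, and those of Osgin1 below, all vehicle arrays at both times.

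Fasting and glycogen genes divided by member. Of 19 genes of insulin action, fasting and glycogen, 7 were called higher and 1 lower at 4 h, and 5 higher and 1 lower at 7 d, with medians of 0.48 and 0.31. Over all genes, 3.24% were called higher and 1.27% lower at 4 h, and 0.506% higher and 0.242% lower at 7 d. Igfbp1, a liver-secreted carrier of insulin-like growth factors, read 10170, 20880, 16810 and 22090 with 2BE at 4 h, against 1268, 1439 and 4533 with vehicle. Igfbp1 read 3684, 8014, 3965, 4158 and 6593 with 2BE at 7 d, against 1579 to 2705 with vehicle. The arms were apart at both times, by 3.05 ± 0.39 and 1.36 ± 0.34 (adjusted p = 0.0843 at 7 d; 0.0325 with the replicate block), with a difference of -1.69 (adjusted p = 0.244). The glycogen-targeting subunits of protein phosphatase 1 went separate ways at 7 d. Ppp1r3b read 1193, 1219, 1407 and 1310 with 2BE at 4 h, against 514.9, 653.9 and 814.3 with vehicle. Ppp1r3b read 1113, 1251, 1159, 1181 and 1065 with 2BE at 7 d, against 2412, 1460, 2847 and 1918 with vehicle. All 2BE arrays were above vehicle at 4 h and below vehicle at 7 d.

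The change of Ppp1r3b was 0.98 ± 0.18 at 4 h (adjusted p = 0.00462) and -0.86 ± 0.16 at 7 d (adjusted p = 0.0151), a reversal with a difference of -1.84 ± 0.23 (adjusted p = 0.00429) that kept its call in all 29 alternatives. Ppp1r3c had the same signs without a call (0.78 and -0.69, difference -1.47, adjusted p = 0.295), and with the replicate block its 7 d fall and difference were called (adjusted p = 0.0325 and 0.0384). Ppp1r3g had a positive change at 4 h, as both of these had, and the opposite sign to theirs at 7 d. It read 68.4, 122.1, 57.5 and 152.2 with 2BE at 4 h, against 42.8, 50.3 and 41.3 with vehicle. Ppp1r3g read 322.6, 1171, 331.3, 512.1 and 546.9 with 2BE at 7 d, against 56.1, 34.2, 49.0 and 58.3 with vehicle. It stood at 1.04 ± 0.38 (adjusted p = 0.150) and 3.38 ± 0.34 (adjusted p = 0.000423), with a difference of 2.34 ± 0.51 (adjusted p = 0.0800; 0.0371 with the replicate block). The 7 d call of Ppp1r3b was lost without vehicle at 7 d replicate 3 (adjusted p = 0.0610).

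Several BMP and SMAD targets fell at 7 d. Bone morphogenetic protein (BMP) signals act through SMAD factors in hepatocytes to induce hepcidin, the hormone that limits iron export, together with inhibitors of the pathway. Of 15 measured genes, 2 were called higher and 0 lower at 4 h (3.24% and 1.27% of all genes were). At 7 d, 0 were called higher and 5 lower (0.506% and 0.242%), and 3 had a called difference, all downward (0.170%). The median change was 0.11 at 4 h and -0.50 at 7 d, and 1 of the 15 differences was above 0, against 9635 of all 18193. Id1, an inhibitor of helix-loop-helix factors induced by BMP, read 325.9, 256.0, 440.4 and 478.2 with 2BE at 4 h, against 205.1, 263.3 and 111.1 with vehicle. Id1 read 142.8, 160.3, 125.0, 110.4 and 173.2 with 2BE at 7 d, against 428.7, 406.9, 250.7 and 400.8 with vehicle. The arms overlapped at 4 h and were apart at 7 d. It stood at 1.00 ± 0.27 (adjusted p = 0.0471) and -1.37 ± 0.24 (adjusted p = 0.0131), with a difference of -2.37 ± 0.36 (adjusted p = 0.0189).

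Smad7, the inhibitory SMAD, read 184.2, 184.2, 258.8 and 197.3 with 2BE at 4 h, against 130.9, 177.2 and 119.3 with vehicle. Smad7 read 163.7, 128.4, 148.0, 156.8 and 162.5 with 2BE at 7 d, against 261.3, 257.9, 195.7 and 263.4 with vehicle. The arms were apart at both times, above vehicle at 4 h and below it at 7 d. It stood at 0.54 ± 0.15 (adjusted p = 0.0494) and -0.68 ± 0.13 (adjusted p = 0.0213), with a difference of -1.21 ± 0.20 (adjusted p = 0.0228) and a second probe set at 0.38 and -1.04. The 4 h calls of Id1 and Smad7 were the weak side of these reversals: with the replicate block neither was called at 4 h (adjusted p = 0.137 and 0.0852), both became late, and without vehicle at 4 h replicate 3 the 4 h adjusted p was 0.194 and 0.182. Atoh8, a helix-loop-helix factor, was late and lower, at 0.30 ± 0.11 (adjusted p = 0.137) and -0.46 ± 0.09 (adjusted p = 0.0291), with a difference of -0.77 (adjusted p = 0.0338). Id3 stood at 0.24 and -1.19 (adjusted p = 0.0213 at 7 d) and Id2 at -0.40 and -1.29 (adjusted p = 0.0473 at 7 d; 0.0538 with the replicate block), with no called difference (adjusted p = 0.118 and 0.553) and 7 d calls that were lost without vehicle at 7 d replicate 2 (adjusted p = 0.0846 and 0.164). The difference lost its call without 2BE at 7 d replicate 4 for Id1 (adjusted p = 0.0536), without vehicle at 7 d replicate 4 for Smad7 (0.0622) and without vehicle at 4 h replicate 1 for Atoh8 (0.0977).

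Hamp encodes hepcidin. It read 23820, 25000, 23350 and 25260 with 2BE at 4 h, against 19980, 20720 and 18240 with vehicle. Hamp read 3265, 11020, 6804, 11090 and 3145 with 2BE at 7 d, against 19380, 12650, 13960 and 15860 with vehicle. The arms were apart at both times, above at 4 h and below at 7 d, but the change was called at neither (0.31 ± 0.36, adjusted p = 0.731, and -1.32 ± 0.31, adjusted p = 0.0645), and the difference of -1.63 ± 0.47 was not called (adjusted p = 0.208). Slc40a1, which encodes the iron exporter ferroportin, was called lower at 4 h with overlapping arms (-0.82 ± 0.19, adjusted p = 0.0230; 0.123 without vehicle at 4 h replicate 1) and stood at -0.37 ± 0.17 at 7 d (adjusted p = 0.434).

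The clock genes Arntl and Per3 ran in opposite directions. The circadian clock is a loop in which ARNTL and CLOCK drive the PER and CRY genes that repress them. Arntl read 205.0, 309.3, 383.5 and 328.2 with 2BE at 4 h, against 99.8, 104.5 and 211.1 with vehicle. Arntl read 209.3, 56.1, 94.3, 66.4 and 79.7 with 2BE at 7 d, against 233.7, 310.6, 308.7 and 248.9 with vehicle. The 4 h arms touched at 1 array of each, and at 7 d the 2BE arrays were all lower. The change of Arntl was 1.19 ± 0.36 (adjusted p = 0.0707) and -1.59 ± 0.31 (adjusted p = 0.0243), a late fall with a difference of -2.79 ± 0.47 (adjusted p = 0.0268; 0.0625 without vehicle at 7 d replicate 3), while its second probe set stood near 0 at both times (-0.03 and 0.02). Per3 ran opposite: 59.5, 39.2, 42.9 and 33.5 with 2BE at 4 h, against 92.1, 82.3 and 55.0 with vehicle. Per3 read 117.4, 178.0, 193.2, 249.0 and 193.9 with 2BE at 7 d, against 138.3, 75.3, 67.7 and 86.9 with vehicle. Arms overlapped at both times by 1 array.

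Per3 was called at neither time (-0.79 ± 0.26, adjusted p = 0.108, and 1.02 ± 0.23, adjusted p = 0.0532), but its difference of 1.81 ± 0.35 was called (adjusted p = 0.0415; 0.115 without vehicle at 4 h replicate 1), and with the replicate block it was late (adjusted p = 0.0346 at 7 d). Its 5 other probe sets gave differences of 0.12 to 1.48. Dbp, an output factor of the clock, had the same signs without a call (-2.04 ± 0.62 and 1.14 ± 0.54, difference 3.18, adjusted p = 0.157). Nfil3, a repressor acting on the same sites as DBP, was called higher at 4 h only (1.32 ± 0.19 and 0.21 ± 0.16, difference -1.11, adjusted p = 0.0873), and with the replicate block its difference was called (-1.04, adjusted p = 0.00614), which made it transient. Called at 7 d only was Usp2, a clock-controlled ubiquitin protease (0.64 and 1.83; adjusted p at 7 d 0.0291, and 0.130 without vehicle at 7 d replicate 3). Of 19 clock genes, 3 were called higher at 4 h (3.24% of all genes were), and 2 higher and 1 lower at 7 d (0.506% and 0.242%). Of their differences, 1 was called downward (0.170% of all genes), and 3 with the replicate block (Arntl, Nfil3 and Cry1). The labels used here state no hour of tissue collection, so whether the arms were collected at the same clock time was not tested.

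The promoters of Arntl and Per3 are shown because each holds a known clock motif in capitals: the ROR element core TAGGTCA in Arntl, at bases 31 to 37, and the D-box TTATGTAA, the site of DBP and NFIL3, in Per3, at bases -205 to -198 and -158 to -151 (RefSeq, GRCm38.p6; chr7:113207261-113207560, plus strand, and chr4:151044616-151044915, minus strand; 2 start sites are listed for Arntl).
Arntl: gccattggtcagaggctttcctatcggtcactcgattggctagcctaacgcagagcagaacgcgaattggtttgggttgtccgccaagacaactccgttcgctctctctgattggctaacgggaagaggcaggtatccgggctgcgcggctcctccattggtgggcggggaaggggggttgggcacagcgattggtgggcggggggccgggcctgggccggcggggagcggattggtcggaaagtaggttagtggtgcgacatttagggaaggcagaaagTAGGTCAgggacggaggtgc
Per3: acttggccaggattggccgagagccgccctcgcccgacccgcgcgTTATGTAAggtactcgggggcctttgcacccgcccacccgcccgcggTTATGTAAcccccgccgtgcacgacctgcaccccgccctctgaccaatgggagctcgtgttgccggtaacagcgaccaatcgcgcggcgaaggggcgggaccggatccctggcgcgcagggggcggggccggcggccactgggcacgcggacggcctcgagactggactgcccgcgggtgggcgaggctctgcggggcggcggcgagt
Searched on both strands, the D-box was present in 1.11% of all 27025 genes, the ROR element core in 2.97% and the E-box CACGTG, the site of ARNTL and CLOCK, in 8.09%; among 17 clock genes with a window these were 1 (Per3), 2 (Arntl and Nfil3) and 5.

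Late induction covered Cd24a, the lysozyme genes Lyz1 and Lyz2, Slc25a37 and Bpgm. Cd24a, a surface glycoprotein of immature, regenerating and blood cells, read 23.2, 23.9, 42.0 and 27.9 with 2BE at 4 h, against 26.0, 38.6 and 28.8 with vehicle. Cd24a read 99.8, 89.5, 139.6, 93.1 and 69.0 with 2BE at 7 d, against 27.7, 29.9, 31.6 and 32.1 with vehicle. The arms were mixed at 4 h and far apart at 7 d. It stood at -0.11 ± 0.21 (adjusted p = 0.863) and 1.63 ± 0.18 (adjusted p = 0.000795), with a difference of 1.74 ± 0.28 (adjusted p = 0.0228), and its other probe sets gave differences of 0.78 and 1.88. Lyz2, the lysozyme gene of macrophages and granulocytes, stood at -0.32 ± 0.12 (adjusted p = 0.147) and 0.54 ± 0.10 (adjusted p = 0.0213), with a difference of 0.87 (adjusted p = 0.0338). Its near-identical paralog Lyz1 stood at -0.28 and 0.63 (difference 0.91, adjusted p = 0.0338), and cross-hybridisation between them was not tested. For both, all 2BE arrays lay below all vehicle arrays at 4 h and above them at 7 d. The 4 h readings were 288.9 to 410.5 against 410.9 to 477.6 for Lyz2, and 420.7 to 593.4 against 608.8 to 699.8 for Lyz1. Part of each difference thus lay in the 4 h estimate, which was not called. The 2 other probe sets of Lyz1 gave differences of -0.07 and 0.85.

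Slc25a37, the mitochondrial iron importer mitoferrin 1, read 165.4 to 221.7 with 2BE at 4 h, against 216.3 to 270.2 with vehicle. Slc25a37 read 340.3 to 453.1 with 2BE at 7 d, against 260.7 to 309.6 with vehicle. It stood at -0.27 ± 0.12 (adjusted p = 0.228) and 0.57 ± 0.10 (adjusted p = 0.0151), with a difference of 0.85 (adjusted p = 0.0338). Bpgm, which makes the 2,3-bisphosphoglycerate of red cells, read 171.5 to 199.1 with 2BE at 4 h, against 195.1 to 222.6 with vehicle. Bpgm read 203.1 to 344.7 with 2BE at 7 d, against 145.6 to 177.8 with vehicle. It stood at -0.13 ± 0.13 (adjusted p = 0.690) and 0.76 ± 0.12 (adjusted p = 0.00672), with a difference of 0.90 (adjusted p = 0.0483). Both genes had overlapping arms at 4 h and arms apart at 7 d. With the replicate block the differences of Bpgm and Slc25a37 were not called (adjusted p = 0.0887 and 0.0626). Without 1 array the adjusted p of the difference reached 0.0547 for Cd24a (2BE at 7 d replicate 4), 0.0801 for Lyz2 (vehicle at 7 d replicate 3), 0.0885 and 0.0865 for Lyz1 and Slc25a37 (vehicle at 7 d replicate 4) and 0.111 for Bpgm (2BE at 4 h replicate 2).

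**Figure D4:**
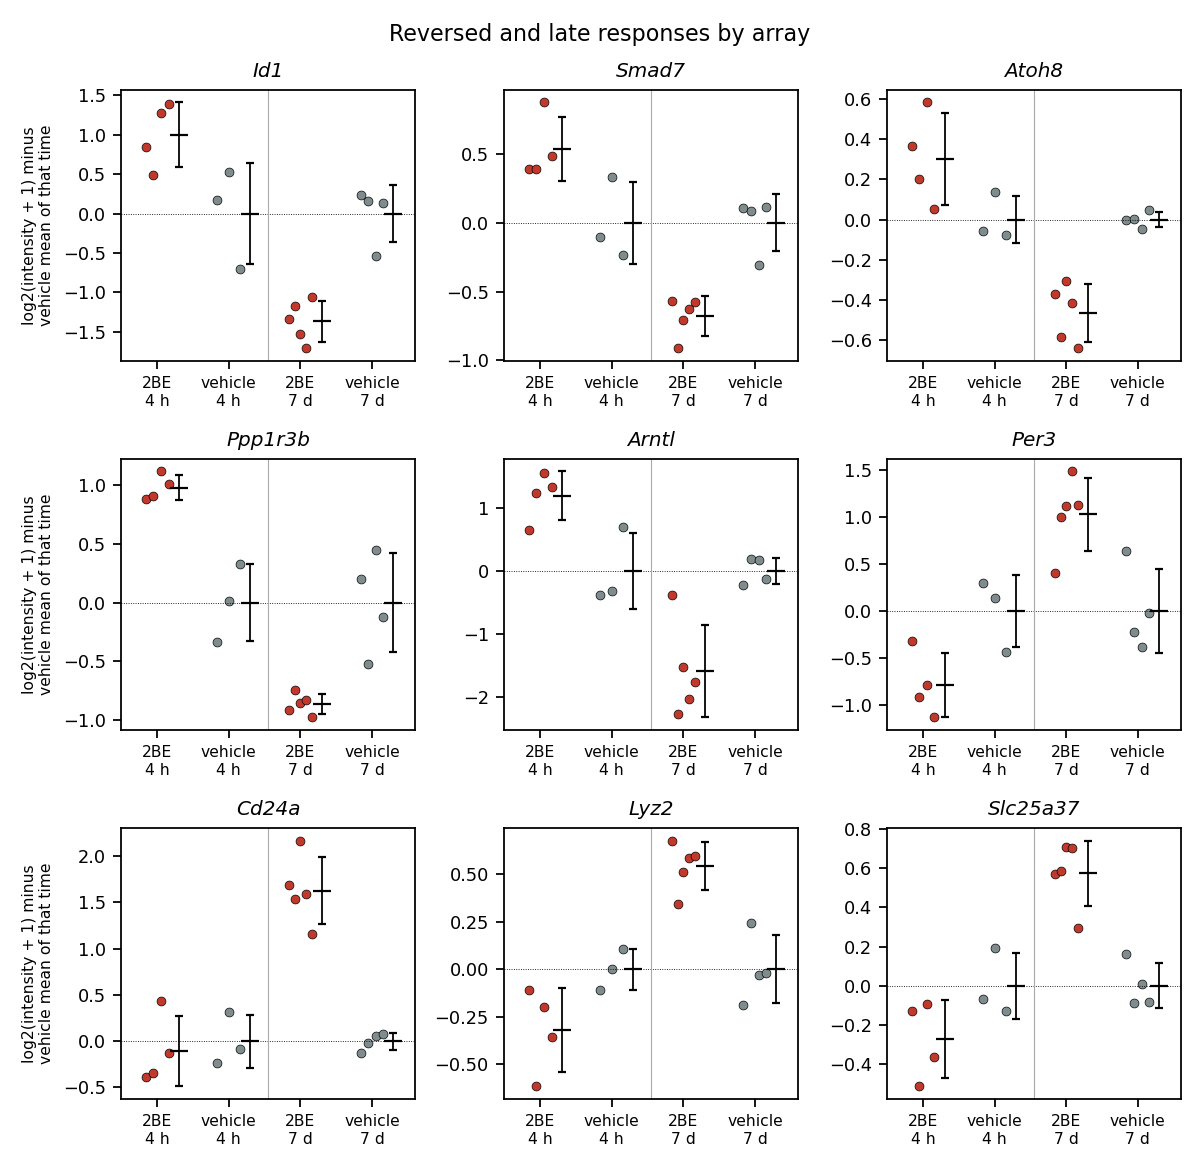
Points are single arrays, 2BE in red and vehicle in grey, as log2(intensity + 1) minus the vehicle mean of the same time, with the group mean ± SD beside them (4, 3, 5 and 4 arrays from left to right). Id1, Smad7, Atoh8, Ppp1r3b and Arntl lay below all vehicle arrays at 7 d, Cd24a, Lyz2 and Slc25a37 above them, and Per3 overlapped at both times.

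Macrophage markers had differences of the same sign as these late genes. All 14 measured markers of macrophages and Kupffer cells had a difference above 0, against 9635 of all 18193 genes. Their medians were -0.19 at 4 h and 0.52 at 7 d. Of the 14, 0 were called at 4 h (4.51% of all genes were), and Marco and Cd68, 2 in all, were called higher at 7 d (0.506%). In the difference 0 were called (0.269%). Their summed intensity was 4947 to 9533 with 2BE at 4 h, against 6402 to 11690 with vehicle. This sum was 8412 to 11830 with 2BE at 7 d, against 6400 to 7535 with vehicle, so the arms overlapped at 4 h and were apart at 7 d. Marco, a scavenger receptor of macrophages, read 62.8 to 199.4 with 2BE at 4 h, against 54.8 to 97.8 with vehicle. Marco read 262.0, 121.9, 148.2, 268.7 and 837.5 with 2BE at 7 d, against 52.1 to 60.4 with vehicle. It stood at 0.60 ± 0.49 (adjusted p = 0.597) and 2.19 ± 0.43 (adjusted p = 0.0236), with a difference of 1.59 (adjusted p = 0.426). A second probe set of Marco gave 0.18 and 0.93. With the replicate block at 4 h, Csf1r, the growth factor receptor of macrophages, the haemoglobin scavenger receptor Cd163 and the complement receptor Vsig4 were reversed, lower at 4 h and higher at 7 d (differences 1.35, 1.31 and 1.02, adjusted p = 0.00666, 0.0116 and 0.0108), and C1qa, C1qb, C1qc, Adgre1 and Cd5l were late and higher; without the block none of these 8 was called. In all, the block called 3 of the 14 lower at 4 h, 10 higher at 7 d and 8 differences upward, against 222, 174 and 44 of all 18193 genes. The 7 d estimates are the same with and without this block. Of 9 erythroid markers, 1 was called higher at 7 d, where 0.506% of all genes were (Slc4a1, the anion exchanger band 3, 0.56 ± 0.12, adjusted p = 0.0453). The 9 had medians of 0.01 at 4 h and 0.04 at 7 d and 0 called differences. Their summed intensity was 1222 to 1516 with 2BE at 4 h, against 929.7 to 1669 with vehicle. The sum was 2156 to 2865 with 2BE at 7 d, against 1781 to 2303 with vehicle, so the arms of this sum overlapped at both times. Without vehicle at 7 d replicate 3 the 7 d adjusted p was 0.0812 for Marco, 0.168 for Cd68 and 0.170 for Slc4a1. The part of either cell type in the late genes was not tested.

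**Figure D5:**
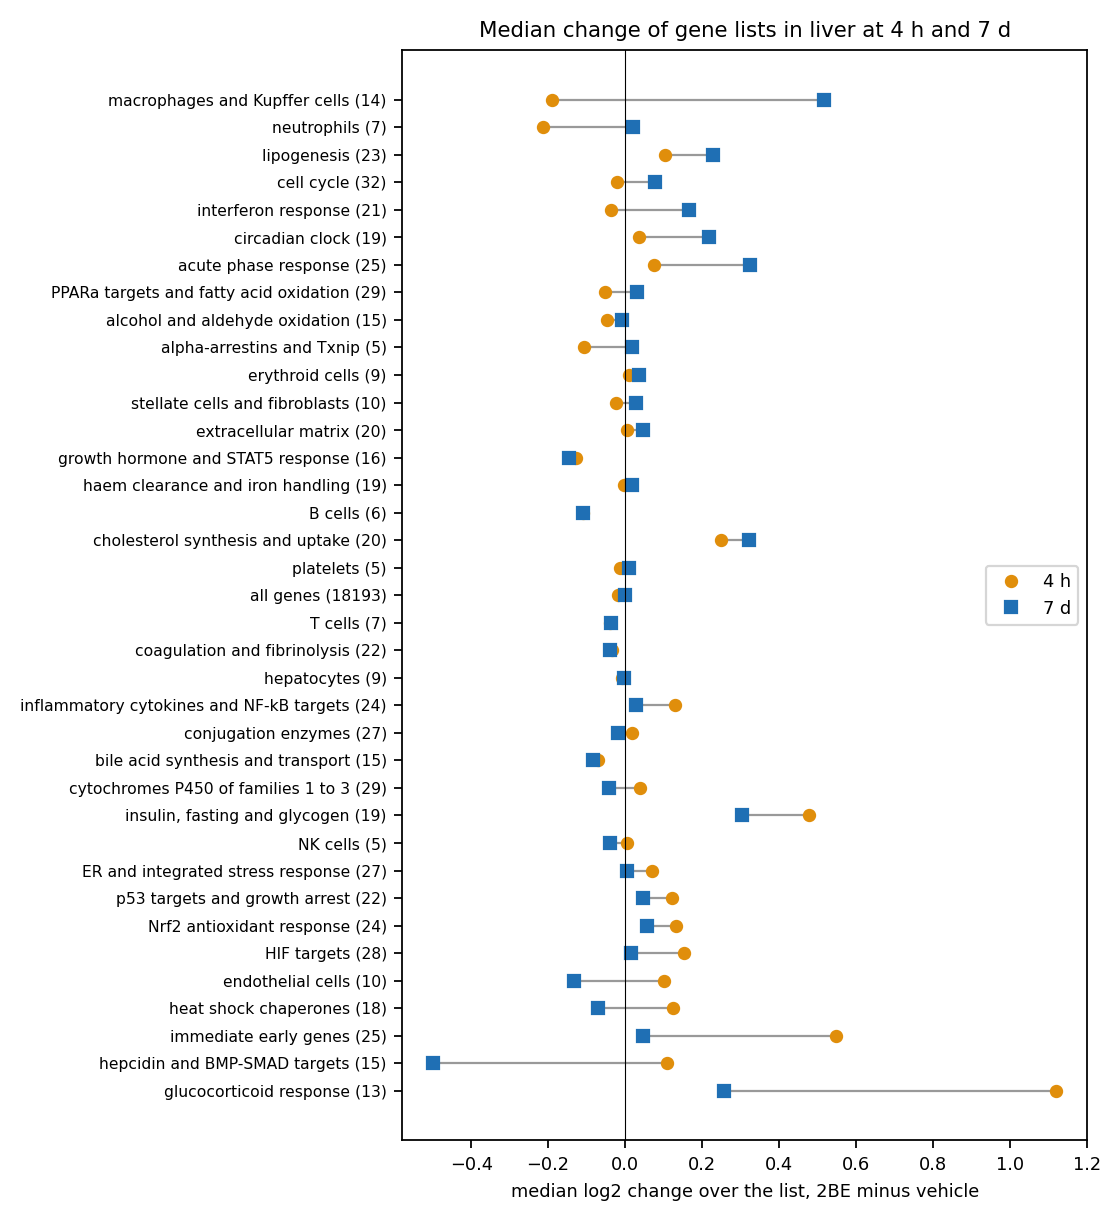
Circles (4 h) and squares (7 d) give the median log2 change, 2BE minus vehicle, of each list with at least 5 measured genes (number in brackets) and of all 18193 genes, ordered by the median difference between the times. Macrophage markers stood at -0.19 and 0.52 at the upper end, and the glucocorticoid list at 1.12 and 0.26 and the BMP-SMAD list at 0.11 and -0.50 at the lower end.

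Several large responses had differences that the arrays could not resolve. Socs2, a growth-hormone-inducible inhibitor of cytokine receptors, read 35.5, 155.2, 55.6 and 153.7 with 2BE at 4 h, against 1122, 683.7 and 512.0 with vehicle. Socs2 read 91.8 to 163.6 with 2BE at 7 d, against 109.7 to 344.8 with vehicle. It stood at -3.13 ± 0.48 and -0.78 ± 0.42 (difference 2.35, adjusted p = 0.186), and its 5 other probe sets gave -3.10 to -0.01 at 4 h. Of 16 growth hormone and STAT5 genes, 4 were called lower at 4 h (1.27% of all genes were) and 1 at 7 d (0.242%). Arrdc3, an alpha-arrestin, stood at -3.56 ± 0.70 and -2.02 ± 0.62 (adjusted p = 0.158 at 7 d), with a difference of 1.54 (adjusted p = 0.666). Its 2BE arrays at 7 d read 1627, 158.3, 1780, 2051 and 313.6, against 2001 to 4206 with vehicle. Cyp2b10, a P450 enzyme induced through the receptor CAR, stood at 2.82 ± 0.44 and 1.52 ± 0.39 (adjusted p = 0.0885 at 7 d), with its arms apart at both times and a difference of -1.30 (adjusted p = 0.519).

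Cyp4a14, a PPARa-induced omega hydroxylase of fatty acids, read 10180, 8156, 10320 and 3313 with 2BE at 4 h, against 12240, 4607 and 946.8 with vehicle. Cyp4a14 read 4160 to 6743 with 2BE at 7 d, against 539.9, 695.8, 839.6 and 57.4 with vehicle. The vehicle arrays at 4 h spanned the whole range of the 2BE arrays, and at 7 d the arms were apart. It stood at 0.95 ± 0.82 (adjusted p = 0.622) and 3.79 ± 0.72 (adjusted p = 0.0213), with a difference of 2.84 ± 1.10 (adjusted p = 0.398), and its 7 d call was lost without 2BE at 7 d replicate 5 (adjusted p = 0.0558). Elovl6, an elongase of fatty acid synthesis, was called at 7 d only (0.41 ± 0.26 and 1.23 ± 0.23, difference 0.81, adjusted p = 0.473; 0.0789 at 7 d without vehicle at 7 d replicate 3). The squalene epoxidase gene Sqle was called at 4 h only, with its arms apart at both times (1.06 ± 0.25 and 0.70 ± 0.22, difference -0.36, adjusted p = 0.792; 0.114 at 4 h without vehicle at 4 h replicate 1). Mki67, a marker of dividing cells, was called at neither time (-0.03 ± 0.16 and 0.34 ± 0.14).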

How the data were processed

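RNA of 16 liver samples was read on Affymetrix arrays. The deposited values are linear intensities from RMA per the submitters' processing notes, with no software version stated there. Over all 44 arrays of the series they ranged between 6.16 and 47797.8 with 0 missing values. Of 45101 probe sets, 64 were controls; of the other 45037, 34945 had 1 gene symbol, 932 several and 9160 none in the platform annotation, and 1 probe set with 1 symbol was taken per gene, giving 18193 genes. That probe set was the one with the highest mean over all 44 arrays. The deposited values also covered the spleen and bone marrow arrays, which did not enter the main fit.

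The log2 of each deposited value plus 1 was fitted with limma 3.58.1 (lmFit and eBayes, R 4.3.3) over the 4 liver groups, and 3 contrasts were tested: 2BE minus vehicle at 4 h, the same at 7 d, and the second minus the first. p-values were adjusted by Benjamini-Hochberg over all genes of a contrast and called at 0.05; every adjusted p given is from this fit or a named alternative. The median SE was 0.0895 at 4 h, 0.0786 at 7 d and 0.119 for the difference, and the number of arrays limits the precision. The comparisons at 4 h and 7 d share no arrays.

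Named genes were up to 8 per class and direction by size among genes whose arms did not overlap at the times called and that were brighter than the median probe set, up to 4 called members per gene list, all reversed genes, and 15 genes carried in every case. The 40 lists (26 of pathways and 14 of cell type markers, 612 of 664 genes measured), the classes and the rule were chosen with earlier results of these data known. Same-numbered arrays correlated in their deviations at 4 h (0.132, 0.282 and 0.146, all above the 0.1 required) but not at 7 d (-0.162 to 0.085). Arrays of unlike number at 4 h correlated at -0.301 to 0.37, highest for 2BE replicate 4 with vehicle replicate 3, so the pairing at 4 h is a hint from the data, not from the labels; 2BE replicate 4 at 4 h, which has no vehicle partner, adds nothing to the contrast in that fit. Alternatives were other pseudocounts, normalization, probe set choice, variance models, replicate blocks, thresholds and leaving out each array. Tested on simulated data, the difference contrast recovered 93 of 100 changes of log2 1 and 100 of 100 of log2 2, with 4 false among 197 calls. The simulated noise was normal and independent between genes, and no other gene changed. These rates therefore need not hold for the real arrays. Some real differences above log2 2 were not called, such as those of Cyp4a14 (2.84) and Socs2 (2.35). A result for 1 gene is not reported here.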

Additional observations from a re-analysis of the deposited data

Results flagged for a closer look

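Among 291 groups of 4 or 5 arrays examined for 97 named genes, 16 (5.5%) held an array far from the others. The threshold is one that chance passes in about 1 in 20 independent groups; these groups share arrays, and their own chance rate was not tested. At 4 h with 2BE these were Nmrk1 at 47.2 in replicate 4 (others 59.2 to 60.6), Zbtb14 at 160 in replicate 3 (143 to 145), Nrg4 at 120 in replicate 1 (231 to 251), Lyz1 at 421 in replicate 2 (561 to 593), Cxcl2 at 123 in replicate 4 (52.6 to 57.2) and the lipase inhibitor gene Angptl4 at 2690 in replicate 1 (2900 to 2930). At 7 d with 2BE they were Osgin1 at 439 (1010 to 1410), Sgk1 at 644 (285 to 346) and the sterol enzyme gene Hsd17b7 at 1540 (938 to 1080), all in replicate 2, Tnfaip3 at 50.4 in replicate 4 (46.4 to 46.5), and Spic, a transcription factor of iron-recycling macrophages, at 104 in replicate 1 (57.1 to 67.5). At 7 d with vehicle they were Id1 at 251 (401 to 429) and Smad7 at 196 (258 to 263), both in replicate 3, Nrg4 at 30.6 (38.6 to 39.5) and Trp53inp1 at 1200 (1520 to 1590), both in replicate 2, and Cyp4a14 at 57.4 in replicate 4 (540 to 840).

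For 30 named genes the response differed between the times by the tested contrast, 7 d minus 4 h on the log2 scale. It was lower at 7 d for Cdkn1a (-3.17), Arntl (-2.79), Hmox1 (-2.60), Hspa1a (-2.41), Id1 (-2.37), Thbd (-2.31), Jun (-2.24), Akap12 (-1.91), Rasgef1b (-1.86), Ppp1r3b (-1.84), Irf2bp2 (-1.77), Cxcl2 (-1.68), Tnfaip3 (-1.49), Smad7 (-1.21), Nfkbia (-1.03) and Atoh8 (-0.77). It was higher at 7 d for Tgm1 (1.83), Per3 (1.81), Cd24a (1.74), Nmrk1 (1.66), Lyz1 (0.91), Bpgm (0.90), Lyz2 (0.87), Slc25a37 (0.85), Frmd4a (0.84), Ttc7 (0.70), Fam169b and Pilrb1 (0.67 each), Slc2a2 (0.66) and Zbtb14 (0.47).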

How the results depend on the processing

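The counts below are called genes. Leaving out 1 array gave 466 to 1090 at 4 h, 36 to 250 at 7 d and 4 to 111 in the difference, with 3 to 92 transient, 12 to 87 lasting, 0 to 15 late and 0 to 4 reversed. The replicate block at 4 h gave 253 at 7 d, 88 in the difference, 24 late and 8 reversed; a replicate block at both times, although numbers did not pair at 7 d, gave 471 at 4 h, 22 transient and 6 reversed. The blocked values are given beside the genes of the report whose call they change. Array weights gave 406 at 7 d, 86 in the difference, 62 transient, 97 lasting, 14 late and 8 reversed, and a fit of all 44 arrays gave 1288, 479, 244, 152, 184, 49 and 14 in the order 4 h, 7 d, difference, transient, lasting, late, reversed. A variance per time, chosen after seeing the data, gave 506 at 4 h, 304 at 7 d, 22 transient and 11 late; fitting only the 2 groups compared gave 176 at 4 h and 244 at 7 d. Quantile normalization gave 13 late and 1 reversed and put the share of higher calls at 57.8% at 4 h and 48.9% in the difference, against 71.9% and 36.7%; centring on medians gave 80.6% and 27.9%. A pseudocount of 16 and the mean of probe sets each gave 1 reversed gene. At an adjusted p of 0.1 there were 64 transient, 112 lasting, 15 late and 9 reversed genes, at 0.01 there were 3, 8, 0 and 0, and with at least 2-fold change 15, 15, 3 and 0. No pseudocount, a filter on low values, the probe set brightest in liver and a robust trended prior kept every count within 1.5 times. Of 4139 repeats of named calls, 3330 kept their side of the threshold, 809 lost it and 0 changed sign. The cause of these shifts was not tested.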

Other observations

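The acute phase list, whose members are plasma proteins that hepatocytes secrete in inflammation, had 0 of 25 measured members called at either time, with a median log2 change of 0.08 at 4 h and 0.32 at 7 d and 19 of 25 differences above 0. Over all genes, 9635 of 18193 differences were above 0. Cholesterol synthesis and uptake genes had medians of 0.25 and 0.32, with 2 of 20 called higher at 4 h and 0 at 7 d. Lipogenic genes had medians of 0.10 and 0.23, with 2 of 23 called higher at 4 h and 3 at 7 d. Of all genes, 3.24% were called higher at 4 h and 0.506% at 7 d.

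Coq10b, a coenzyme Q binding protein gene chosen after its values were seen, stood at 0.78 at 4 h and 1.98 at 7 d (adjusted p = 0.00359 at 7 d), with a difference of 1.20 that was not called.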
